A study of Mus musculus with 8 samples.

Results

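The Slc26 genes code for a family of membrane proteins that move anions, and 10 of the 22873 genes in the count tables were examined here: Slc26a1, Slc26a2, Slc26a3, Slc26a4, Slc26a5, Slc26a6, Slc26a7, Slc26a8, Slc26a10 and Slc26a11. They were listed by gene symbol, and the family was chosen by the measured level of Slc26a4 in dilator muscle, already known from these data to be higher after pupil dilation. The question asked of the family was whether that rise was confined to Slc26a4. The higher level of Slc26a4 in dilated irises is therefore described with its values and is not tested, whereas the other members were tested.

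Single nucleus RNA-seq was carried out on nuclei purified from mouse iris with a variable amount of attached ciliary body, from female albino mice of wild type genotype aged 6 to 8 weeks, with 5 or 6 irises pooled in each library. The 3 untreated libraries received no eye drops. The 3 constricted libraries came from eyes given 5% pilocarpine, a muscarinic agonist, every hour in the light, and the 2 dilated libraries from eyes given 5% phenylephrine, an alpha-adrenergic agonist, with 1% cyclopentolate, a muscarinic antagonist, every hour in the dark. Both treatments lasted 6.5 hours, and the drugs and the lighting cannot be told apart. Each library is a pool of animals, so the spread between libraries is a spread between pools.

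The libraries held 34357 nuclei in the authors' 10 cell types, with 5189437 to 25136427 UMIs (unique molecular identifiers, each standing for a captured RNA molecule) per library and a median of 2775 to 4697.5 UMIs per nucleus. Levels are given as CPM, the UMIs of a gene per 1000000 UMIs summed over the nuclei of 1 cell type in 1 library. Untreated replicate 1 and dilated replicate 1 shared 63 cell barcodes, 4.26% of those in the smaller library, and no other pair shared more than 18; the fits and the shares of nuclei were repeated without every nucleus whose barcode another library held. Of the 6 markers listed for dilator muscle, Adra1a, Nos1, Unc13c, Cit and Sv2b were highest, in untreated libraries, in the nuclei so labelled, and Myh11 was highest in sphincter 1. None of the 4 markers listed for the ciliary body epithelium (CBE) was highest in its nuclei, since Zic1 was highest in the iris pigment epithelium (PE), Pax6 and Slc4a5 in the ciliary body (CB) and Opcml in stroma 2. Markers listed for CB (Myh11 and Tenm2), for iris PE (Pax6, Otx1 and Tyr) and for sphincter 2 (all 4) were also highest elsewhere, so these names are used below only as the authors' labels.

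Members of this family exchange chloride, bicarbonate, iodide, sulfate or oxalate across membranes, and each is best known from particular tissues. Slc26a4 codes for pendrin, an exchanger of chloride for iodide or bicarbonate known from the thyroid, the inner ear and the kidney. In the eye, transport of chloride and bicarbonate by the ciliary epithelium drives the secretion of aqueous humor.

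Of the 10 members, 7 had a promoter in the RefSeq table used here (GRCm38.p6). The 250 bases before the RefSeq start are shown for Slc26a4, the member highest after dilation, and for its family neighbour Slc26a3, which was hardly detected although it lies on the same chromosome. The capitals mark the TATA motif TATAAA, which was chosen for marking after the matches of all 7 motifs were seen. The Slc26a4 sequence is chr12:31559985-31560234 on the minus strand and the Slc26a3 sequence is chr12:31437969-31438218 on the plus strand, before a RefSeq start that lies inside the GENCODE span of the gene.
Slc26a4: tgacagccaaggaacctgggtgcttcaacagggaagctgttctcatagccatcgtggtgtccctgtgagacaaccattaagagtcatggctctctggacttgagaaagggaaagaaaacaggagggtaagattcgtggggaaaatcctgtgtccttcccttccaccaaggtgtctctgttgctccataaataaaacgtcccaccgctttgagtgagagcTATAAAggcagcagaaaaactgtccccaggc
Slc26a3: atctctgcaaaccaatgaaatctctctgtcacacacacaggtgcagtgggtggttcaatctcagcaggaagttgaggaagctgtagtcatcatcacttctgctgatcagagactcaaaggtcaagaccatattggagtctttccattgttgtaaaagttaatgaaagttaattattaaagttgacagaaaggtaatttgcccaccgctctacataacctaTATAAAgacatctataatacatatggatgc
The 7 motifs searched on both strands were TGACG (the core of a cAMP response element), TGACGTCA (the full element, which contains that core), TGANTCA (AP-1), GCGTGGGCG (EGR), GGGCGG (SP or KLF), CANNTG (E box) and TATAAA. The last of these began 31 bases before the start in Slc26a4 and 30 bases before it in Slc26a3, and was held by 12.4% of the 32851 windows of this length. None of the other 6 motifs was in the Slc26a4 window, and in the Slc26a3 window there were 2 E boxes and none of the other 5. The shares of all windows were 17.8% for the core of the cAMP response element, 1.55% for the full element, 6.75% for AP-1, 0.536% for EGR, 32.7% for SP or KLF and 66.2% for the E box. A match is a run of letters and not a binding site.

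Slc26a4 (ENSMUSG00000020651.8) spans chr12:31519827-31559969 on the minus strand of mm10. It was the most often counted member, with 8538 UMIs, of which 78.6% were in dilator muscle. In dilator muscle it stood at 18.1, 37.4 and 23.1 CPM in untreated replicates 1, 2 and 3 and at 29.8, 34.6 and 22.0 CPM in constricted replicates 1, 2 and 3. In dilated replicates 1 and 2 it stood at 420 and 339 CPM. Both dilated libraries lay above every other library, and untreated and constricted libraries overlapped. The group means were 26.2 ± 10.0 CPM (SD, n = 3) untreated, 28.8 ± 6.33 CPM (SD, n = 3) constricted and 380 ± 57.3 CPM (SD, n = 2) dilated, so the dilated mean was 14.5 times the untreated mean. The fitted log2 fold change was 3.95 ± 0.26 (SE) for dilated against untreated and 3.91 ± 0.26 (SE) for dilated against constricted, 2 comparisons that share the dilated libraries. Without the nuclei whose barcode another library held, the former was 3.94.

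**Figure D1:**
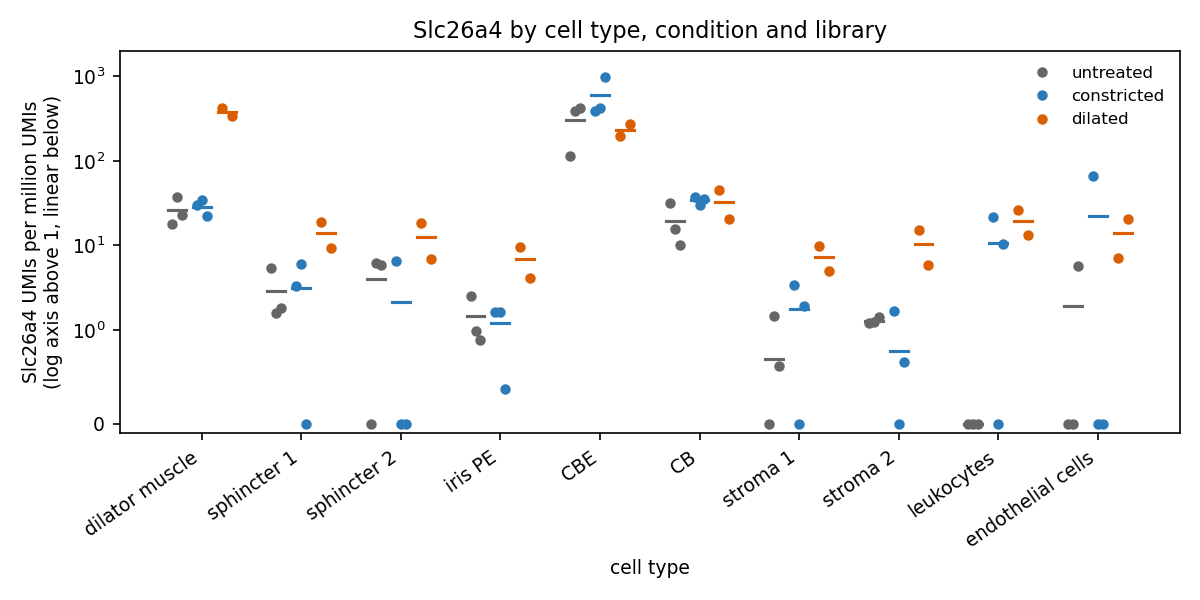
Slc26a4 in UMIs per 1000000 UMIs (log axis above 1, linear below) for each of the 10 cell types. Each point is a library and each bar the mean of a condition; in dilator muscle the 2 dilated libraries, at 420 and 339, lie above all others, whereas in CBE the dilated libraries lie within the untreated range and below the constricted ones.

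The higher level was carried by many nuclei. A Slc26a4 UMI was found in 5.96%, 9.71% and 6.35% of dilator muscle nuclei in untreated replicates 1, 2 and 3, and in 56.5% (exact binomial 95% interval 54.6 to 58.5) and 48.8% (46.0 to 51.5) in dilated replicates 1 and 2, intervals that cover counting error only. After each nucleus was thinned to 1000 UMIs, which left out 26 of 4357 untreated and 3 of 3873 dilated nuclei as too shallow, the shares were 1.5%, 3.24% and 2.63% in the untreated libraries and 28.1% and 23.0% in the dilated ones. Thinned in the same way, stroma 2 nuclei of dilated replicates 1 and 2 held a Slc26a4 UMI in 1.07% and 0.143%, and iris PE nuclei in 0.852% and 0.424%, at median depths of 2659 and 2281.5 UMIs and of 3139 and 3006 UMIs beside 3800 and 3660 UMIs in dilator muscle. The shares in dilator muscle were far above these. Without the nuclei of shared barcodes, the shares at 1000 UMIs were 1.52% in untreated replicate 1 and 28.1% in dilated replicate 1. Nuclei with 5 or more Slc26a4 UMIs made up 10.2% and 6.66% of dilator muscle nuclei in the dilated libraries and at most 0.0962% in an untreated library. In dilated replicate 2 a single nucleus held 87 of the 1692 Slc26a4 UMIs of its dilator muscle, and without it the level there was 322 CPM.

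**Figure D2:**
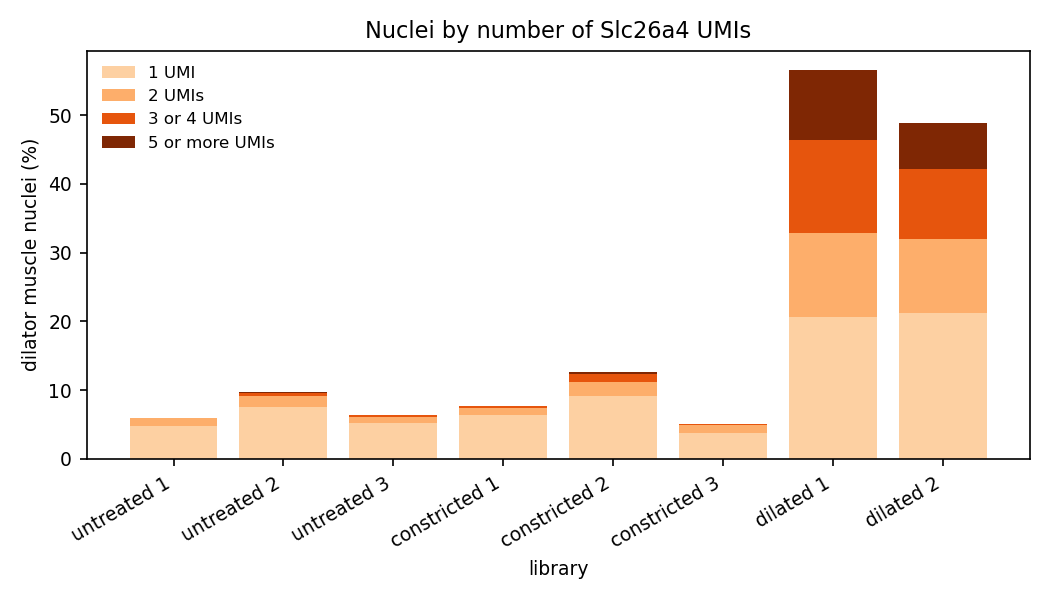
Percent of dilator muscle nuclei, in each library, that held 1, 2, 3 or 4, or 5 or more Slc26a4 UMIs, without thinning. The stacked bars reach 56.5% and 48.8% in the dilated libraries and at most 9.71% in an untreated library.

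CBE was the other place where Slc26a4 was abundant, and there it was so without treatment. It stood at 114, 389 and 416 CPM in untreated replicates 1, 2 and 3, at 387, 418 and 983 CPM in constricted replicates 1, 2 and 3, and at 195 and 273 CPM in dilated replicates 1 and 2. The dilated libraries lay within the untreated range, with a log2 fold change of -0.41 ± 0.39 (SE). The constricted mean was 1.95 times the untreated mean and the groups overlapped; the log2 fold change of 0.90 ± 0.35 (SE) did not pass the test (edgeR quasi-likelihood, adjusted p = 0.569). With the series of consecutive library numbers as a block, this comparison passed (edgeR, log2 fold change 1.35, adjusted p = 0.00409). The share of all genes called for constriction in CBE with that block is not given here. In the other 15 of 16 alternatives the comparison did not pass. Constricted replicate 2 is alone in its series and adds nothing to the blocked comparison. Within each of the 2 series that held both conditions, the constricted library was above the untreated ones. The values were 387 against 114 CPM and 983 against 389 and 416 CPM. Constricted replicate 3, with the highest value, had 52 CBE nuclei, the fewest of any library, and without it the log2 fold change was 0.39.

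The order of the untreated levels was CBE, with a mean of 306 ± 167 CPM (SD, n = 3), then dilator muscle at 26.2 CPM and CB at 19.2 CPM. Dilator muscle and CB overlapped, at 18.1 to 37.4 and 10.1 to 31.8 CPM. The remaining 7 cell types had at most 6.24 CPM in any untreated library and could not be ordered by these counts. In dilated libraries dilator muscle was above CBE, at 339 to 420 against 195 to 273 CPM.

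Smaller amounts of Slc26a4 appeared in other cell types of the dilated libraries. In stroma 1 the dilated libraries held 5.00 and 9.74 CPM, against at most 1.46 CPM untreated. The lowest dilated and highest untreated values were 9.23 and 5.38 CPM in sphincter 1 and 6.81 and 6.24 CPM in sphincter 2. They were 13.2 and 0 CPM in leukocytes and 7.09 and 5.75 CPM in endothelial cells, where constricted libraries overlapped the dilated ones. None of these cell types held over 11 dilated UMIs. In CB the groups overlapped, with a log2 fold change of 1.00 ± 0.43 (SE). In iris PE the untreated libraries held 2.51, 0.995 and 0.888 CPM and the dilated ones 9.53 and 4.11 CPM, and in stroma 2 they held 1.21, 1.25 and 1.42 CPM and 15.1 and 5.84 CPM. In both cell types the dilated libraries lay above the untreated ones, with log2 fold changes of 2.62 ± 0.57 and 3.02 ± 0.59 (SE), which were 2.66 and 2.99 without the nuclei of shared barcodes and 1.86 and 2.18 without dilated replicate 1. As a percent of the dilator muscle of the same library, Slc26a4 stood at 3.59% and 1.72% in stroma 2 of dilated replicates 1 and 2. The dilator muscle marker Adra1a stood there at 3.05% and 0.721%, the marker Nos1 at 4.86% and 2.46%, and the sum of the 6 dilator muscle markers at 5.82% and 2.04%. In iris PE Slc26a4 stood at 2.27% and 1.21%, below Adra1a at 6.70% and 2.68% and Nos1 at 4.25% and 5.05% and the marker sum at 12.7% and 10.0%. In CBE, by contrast, Slc26a4 stood at 46.4% and 80.7%, with Adra1a at 9.34% and 3.04% and Nos1 at 9.0% and 0% and the marker sum at 8.87% and 5.78%. In untreated replicates 1, 2 and 3 Slc26a4 stood at 13.9%, 2.66% and 3.85% in iris PE. In stroma 2 it stood at 6.69%, 3.34% and 6.13% there, on few UMIs. The marker Unc13c, part of the sum, stood in iris PE at 40.5% and 32.2% dilated and 16.3%, 16.7% and 14.3% untreated.

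Slc26a7 codes for a chloride transporter known from the kidney, the stomach and the thyroid (ENSMUSG00000040569.13, chr4:14502430-14621805, minus strand). In contrast to Slc26a4 it fell in dilator muscle with dilation. It stood at 25.6, 29.7 and 19.0 CPM in untreated replicates 1, 2 and 3 and at 23.0, 46.5 and 28.2 CPM in constricted replicates 1, 2 and 3. In dilated replicates 1 and 2 it stood at 9.68 and 9.02 CPM, below every other library. The untreated mean was 2.65 times the dilated mean, and Slc26a7 fell by 1.22 ± 0.31 (SE) on the log2 scale (edgeR quasi-likelihood test, adjusted p = 0.0202 over 15395 genes). Against the constricted libraries the log2 fold change was -1.60 ± 0.31 (SE, adjusted p = 0.0056 by the same test). Within the series of library numbers the direction was the same, at 25.6 against 9.68 CPM in the first and 29.7 and 19.0 against 9.02 CPM in the last. The call against untreated was lost when untreated replicate 2 (adjusted p = 0.102), dilated replicate 1 (adjusted p = 0.104) or dilated replicate 2 (adjusted p = 0.0803) was left out, with log2 fold changes of -0.999, -1.20 and -1.25 by edgeR, and was kept without the nuclei of shared barcodes (-1.23, adjusted p = 0.0204).

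Over all genes tested in dilator muscle, 13.3% were called in this comparison, 7.2% higher and 6.14% lower, and 10.5% were called against the constricted libraries, 4.87% lower. The 13.3% became 7.47% without untreated replicate 2, 7.87% without untreated replicate 3, 8.79% without dilated replicate 1, 6.67% without dilated replicate 2 and 20.4% with the series block. The summed level of the 6 dilator muscle markers was also lower in the dilated libraries, at 3410 to 3521 CPM against 5541 to 6524 CPM untreated; the part of this shift in the result for Slc26a7 was not tested. The 3 lens markers summed to 11.6 CPM in the dilator muscle of dilated replicate 1, 1.60 CPM in dilated replicate 2 and 1.87 to 2.81 CPM in the untreated libraries, and their part was not tested.

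**Figure D3:**
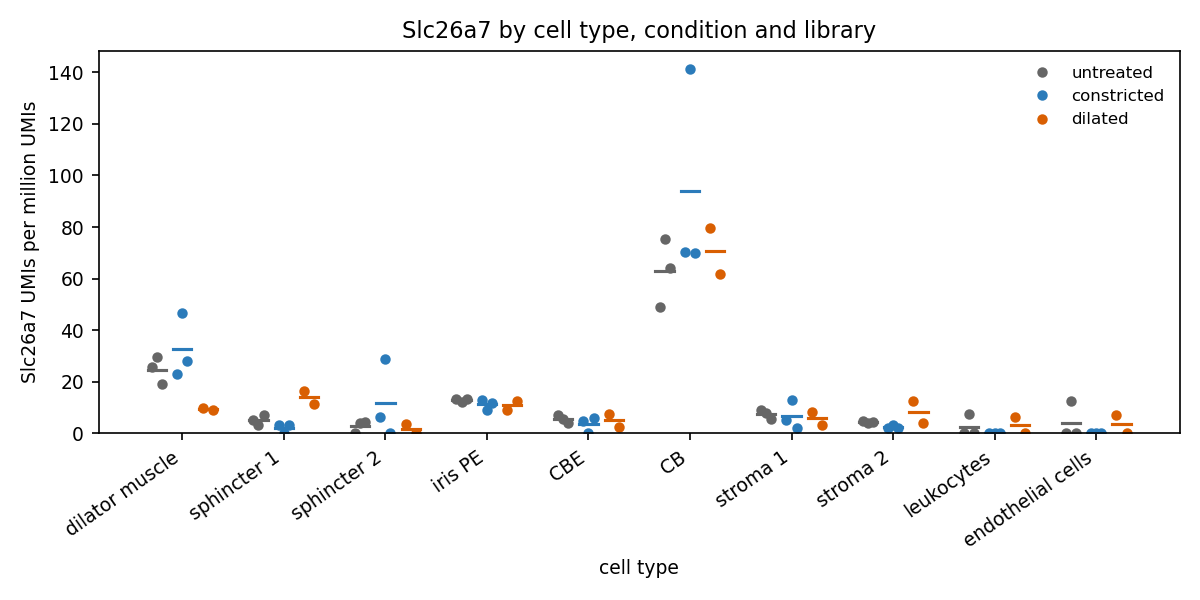
Slc26a7 in UMIs per 1000000 UMIs (linear axis) for each of the 10 cell types. Each point is a library and each bar the mean of a condition; CB is highest, and in dilator muscle the dilated libraries, at 9.68 and 9.02, lie below all others.

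Slc26a7 was highest in CB, at 49.1, 75.2 and 64.1 CPM in untreated replicates 1, 2 and 3 and at 79.8 and 61.9 CPM in dilated replicates 1 and 2. The log2 fold change there was 0.24 ± 0.32 (SE), and the groups overlapped (edgeR, adjusted p = 1.00). In iris PE it stood at 13.4, 12.1 and 13.3 CPM untreated and 9.18 and 12.7 CPM dilated, with a log2 fold change of -0.23 ± 0.27 (SE). In sphincter 1 the means of Slc26a7 were 5.26 CPM untreated, 2.20 CPM constricted and 14.0 CPM dilated, from 24 UMIs over all libraries. Without thinning, 3.03% to 5.83% of sphincter 1 nuclei in the dilated libraries and 1.09% to 2.58% in the untreated ones held a Slc26a7 UMI. It did not pass the filter there and was not tested. The fitted effect of dilation differed between dilator muscle and stroma 2 by -2.31 ± 0.42 on the log2 scale (edgeR interaction term, adjusted p = 0.0021). In stroma 2 alone Slc26a7 did not pass the filter on low counts, with 96 UMIs over all 8 libraries. The joint fit filtered both cell types together, so this difference leans on few stroma 2 counts. In stroma 2 the untreated libraries held 4.83, 4.07 and 4.53 CPM and the dilated ones 12.4 and 4.09 CPM, so that 1 dilated library was higher and the other was not. The lens markers summed to 14.3 CPM in stroma 2 of dilated replicate 1 and to 2.92 CPM in that of dilated replicate 2, and their part was not tested. Without dilated replicate 1 the difference between the cell types was -1.23 and did not pass (adjusted p = 0.385 by edgeR), and without the nuclei of shared barcodes it was -2.29 (adjusted p = 0.00185 by edgeR). The interaction was tested for the same 7 members in both cell types, and no other member passed. Slc26a5, Slc26a6 and Slc26a10 did not pass the filter in stroma 2 alone, nor Slc26a5 and Slc26a10 in iris PE alone. Little can therefore be read from their not passing here. The share of all genes that passed the interaction is not given here. Between dilator muscle and iris PE the difference was -0.96 ± 0.32 and missed the threshold (adjusted p = 0.0514 by edgeR). It passed without the nuclei of shared barcodes (-0.98, adjusted p = 0.0461 by edgeR), but did not pass in 6 of 11 alternatives.

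Among the other 8 members, 6 passed the filter on low counts in at least 1 cell type and none of these was called, dilated against untreated; Slc26a1 and Slc26a3 passed it in none and were not tested. In dilator muscle 8 of the 10 members passed the filter, and beside Slc26a4 this left 7 tested members. Of these 1 was called, Slc26a7, beside 13.3% of all genes tested there, a share too close to read this count as a result about the family. The median log2 fold change of the 7 members was -0.12, beside 0.02 over all genes tested in dilator muscle. Over the 10 cell types there were 23 tests of members other than Slc26a4, of which 1 was called, beside 3.34% of all tests. Low counts limited what could be seen: in endothelial cells no member passed the filter, and in leukocytes, sphincter 1 and sphincter 2 only Slc26a11 did.

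**Figure D4:**
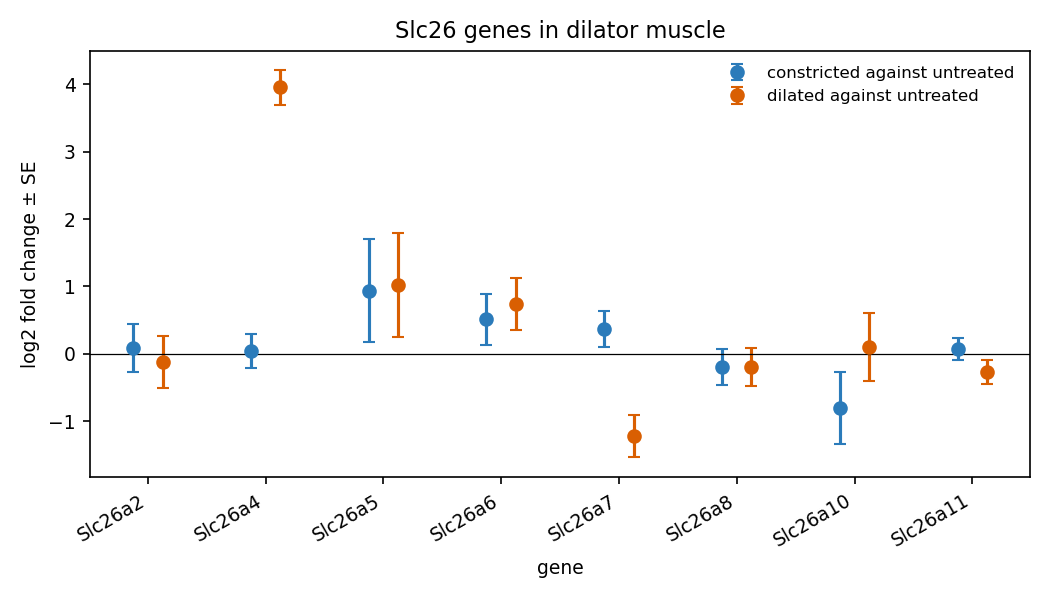
Log2 fold change with its standard error in dilator muscle for the 8 members that passed the filter, dilated and constricted each against untreated. Slc26a4 stands at 3.95 and Slc26a7 at -1.22 with dilation; the other members lie within 1.02 of 0, with wide errors for Slc26a5.

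Slc26a6, an exchanger of chloride for oxalate or bicarbonate, had 394 UMIs in all. In dilator muscle its log2 fold change with dilation was 0.74 ± 0.39 (SE), which did not pass (edgeR, adjusted p = 0.238). Slc26a3, a chloride and bicarbonate exchanger of the gut, had 54 UMIs, and its highest dilator muscle level was 3.12 CPM, in untreated replicate 1, from 5 UMIs.

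Of the members known as sulfate transporters, Slc26a11 was the most widespread, with 3197 UMIs. It was highest in leukocytes, at 99.3, 117 and 80.5 CPM in untreated replicates 1, 2 and 3, and next in stroma 1 at 53.8, 41.7 and 45.6 CPM. In dilator muscle it stood at 41.8, 32.1 and 31.2 CPM untreated and 26.8 and 23.0 CPM dilated. The dilated libraries were the lowest, but the log2 fold change of -0.27 ± 0.18 (SE) did not pass (edgeR, adjusted p = 0.35). Slc26a2, which supplies sulfate to cartilage, had 714 UMIs, and in stroma 2 it stood at 20.5, 11.6 and 7.64 CPM untreated and 9.70 and 12.3 CPM dilated, with overlapping groups. Slc26a1, a sulfate and oxalate transporter, had 112 UMIs, at most 13 in the dilator muscle of any library, and overlaps Idua on the other strand.

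Slc26a8, known from sperm, had 1283 UMIs spread over all 10 cell types. In dilator muscle it stood at 18.7, 14.2 and 15.3 CPM untreated, 19.6, 10.2 and 10.2 CPM constricted and 14.6 and 9.42 CPM dilated, with a log2 fold change of -0.19 ± 0.28 (SE) for dilation. Its values were higher in the first series of library numbers, as in stroma 2, where untreated replicate 1 and constricted replicate 1 held 18.1 and 19.1 CPM and the other untreated and constricted libraries 4.59 to 8.77 CPM. Slc26a5, prestin, the motor protein of outer hair cells, had 149 UMIs. Its log2 fold change of 1.02 ± 0.77 (SE) in dilator muscle carried a wide error (edgeR, adjusted p = 0.43). The mean levels in dilator muscle were close, at 1.40 CPM untreated and 1.54 CPM dilated, from 12 and 27 UMIs. Slc26a10 had 234 UMIs, overlaps B4galnt1 on the other strand, and had a log2 fold change of 0.10 ± 0.51 (SE) there.

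Compared per kb of gene span, a division that places short genes higher, Slc26a4 in untreated CBE was the highest at 7.63 CPM per kb. Slc26a11 in leukocytes followed at 3.88 CPM per kb, and Slc26a10 in endothelial cells at 3.13 CPM per kb rested on 8 UMIs. Slc26a10 spans 9.25 kb and Slc26a7 119 kb. By CPM alone untreated Slc26a7 in CB, at 62.8 CPM, was above Slc26a10 in endothelial cells, at 29.0 CPM. In untreated dilator muscle Slc26a11, at 1.37 CPM per kb, was above Slc26a4, at 0.653 CPM per kb. In dilated dilator muscle Slc26a4 was at 9.46 CPM per kb.

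Without a block, constriction moved no tested member past the threshold. The 8 members that passed the filter somewhere gave 28 tests. Of these 0 were called by edgeR, beside 0.0118% of all tests (0.0065% in dilator muscle). By the same test 1 had an unadjusted p under 0.05, Slc26a4 in CBE. The 28 include Slc26a4 in iris PE, with 13 untreated and 8 constricted UMIs beside 67 dilated. They also include Slc26a4 in stroma 2, with 10 and 4 UMIs beside 66 dilated. Counted there mainly in the dilated libraries, it could hardly be called for constriction. With DESeq2 0 members were called as well. With the series block 1 was called, Slc26a4 in CBE (log2 fold change 1.35, adjusted p = 0.00409 by edgeR). The share of all tests called for constriction with that block is not given here. For dilation in dilator muscle the block raised the share of all genes called from 13.3% to 20.4%. In dilator muscle the log2 fold changes for constriction ranged from -0.80 for Slc26a10 to 0.94 for Slc26a5, and Slc26a4 stood at 0.05 ± 0.25 (SE).

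Other genes of anion and acid-base transport were read from 7 lists: bicarbonate transporters of the Slc4 family, cation-chloride cotransporters, chloride channels, carbonic anhydrases, sulfate uptake and activation, genes associated with iodide and pendrin, and sodium-proton exchangers. Of 86 listed genes 61 were tested in dilator muscle, and 8 rose and 4 fell, dilated against untreated. This was 19.7% in all, beside 13.3% of all genes, with 7.2% called higher and 6.14% lower. The counts of each list below are to be read beside these shares. Because the lists were chosen with earlier results of these data known, no excess over all genes can be read from them. The called genes were spread over 6 of the lists, and none of 6 tested sodium-proton exchangers was called (1 had an unadjusted p under 0.05).

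Among the Slc4 genes 1 of 8 rose and 1 fell. Slc4a7, a sodium bicarbonate cotransporter, stood at 24.9, 22.2 and 23.1 CPM untreated and 79.1 and 71.5 CPM dilated (log2 fold change 1.88 ± 0.18, edgeR, adjusted p = 4.41e-05). Slc4a5, another sodium bicarbonate cotransporter, stood at 327, 258 and 206 CPM untreated and 153 and 64.3 CPM dilated (-1.09 ± 0.33, adjusted p = 0.0458 by edgeR). The constricted libraries, at 282, 259 and 130 CPM, overlapped the dilated ones. Slc4a5 lost its call without untreated replicate 1 (adjusted p = 0.112), 2 (0.111) or 3 (0.056), constricted replicate 2 (0.0655) or dilated replicate 2 (0.309), all by edgeR, and with DESeq2 (adjusted p = 0.0937), and its log2 fold change was -1.75 without dilated replicate 1.

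Of 7 tested cation-chloride cotransporters 2 rose. Slc12a2, which brings sodium, potassium and chloride into cells, stood at 33.0, 18.7 and 25.9 CPM untreated and 52.3 and 67.7 CPM dilated (log2 fold change 1.46 ± 0.22, edgeR, adjusted p = 0.000826). Slc12a4, a potassium-chloride cotransporter, stood at 18.1, 14.1 and 16.9 CPM untreated and 26.5 and 24.0 CPM dilated. It was called higher against untreated (log2 fold change 0.83 ± 0.23, edgeR, adjusted p = 0.0315). The constricted libraries, at 19.2, 33.7 and 23.9 CPM, overlapped the dilated ones. Its call was lost without any of untreated replicates 1, 2 and 3 (adjusted p = 0.0504, 0.141 and 0.0849 by edgeR). The call was lost as well without dilated replicate 1 (log2 fold change 0.84) or dilated replicate 2 (0.82), fits that leave 1 dilated library.

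Of 18 chloride channel genes tested 2 rose and 1 fell. Clic4, an intracellular chloride channel family member, stood at 64.2, 65.2 and 69.9 CPM untreated and 175 and 405 CPM dilated (log2 fold change 2.33 ± 0.30, edgeR, adjusted p = 0.000295), and without dilated replicate 2 its log2 fold change was 1.5. Ttyh2 stood at 8.10, 4.93 and 4.75 CPM untreated and 18.9 and 12.2 CPM dilated (1.69 ± 0.29, edgeR, adjusted p = 0.00221). Ano1, a calcium-activated chloride channel, fell by 1.48 ± 0.43 on the log2 scale (edgeR, adjusted p = 0.0356), and its call was lost without untreated replicates 1 or 2 (adjusted p = 0.0696 and 0.112 by edgeR) or dilated replicates 1 or 2 (adjusted p = 0.0763 and 0.191 by edgeR).

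Of 12 carbonic anhydrase genes tested 1 rose and 2 fell. Car14, a membrane-bound enzyme, stood at 125, 126 and 121 CPM untreated and 27.3 and 35.7 CPM dilated (log2 fold change -1.79 ± 0.23, edgeR, adjusted p = 0.000304). Car8 stood at 14.3, 14.2 and 17.2 CPM untreated and 4.25 and 2.00 CPM dilated (-2.05 ± 0.30, edgeR, adjusted p = 0.000741), and its log2 fold change was -2.67 without dilated replicate 1. Car9 rose by 1.09 ± 0.28 on the log2 scale (edgeR, adjusted p = 0.0215), and its call was lost without untreated replicates 2 or 3 (adjusted p = 0.0945 and 0.118 by edgeR) or dilated replicate 2 (adjusted p = 0.165 by edgeR).

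In the sulfate list 1 of 7 tested genes rose, Papss2, which makes the sulfate donor PAPS, at 223, 183 and 181 CPM untreated and 279 and 295 CPM dilated (log2 fold change 0.76 ± 0.14, edgeR, adjusted p = 0.00316). Of the iodide and pendrin list 3 genes were tested and 1 rose, Dio2, a deiodinase that activates thyroid hormone, at 1.87, 4.36 and 3.80 CPM untreated and 11.5 and 40.9 CPM dilated (2.99 ± 0.51, edgeR, adjusted p = 0.00196). The log2 fold change of Dio2 was 3.69 without dilated replicate 1 and 1.72 without dilated replicate 2. For both genes the dilated libraries lay above the untreated ones.

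None of the 6 tested genes around Slc26a4 was called higher in dilator muscle, beside 7.2% of all genes. With so few genes this count is not read as a result about the locus. Of the 5 nearest genes in the tables on each side, 6 had enough counts to test in dilator muscle, and 1 was called, lower, beside 13.3% of all genes called; without the nuclei of shared barcodes 1 neighbour and 12 list genes were called, as with them. The neighbour was Lamb1, a laminin chain, at 140, 164 and 158 CPM untreated and 60.4 and 79.1 CPM dilated (log2 fold change -0.96 ± 0.18, edgeR, adjusted p = 0.00365). Bcap29, whose start lies 74.7 kb from that of Slc26a4, stood at 53.6, 54.2 and 49.7 CPM untreated and 65.7 and 59.7 CPM dilated (0.44 ± 0.16, edgeR, adjusted p = 0.0953). Dld, Cbll1, Dus4l and Cog5 had log2 fold changes from 0.10 to 0.27, none of which passed. Slc26a3, Gm29542, Gpr22 and Gm48809 were too low to test, at no more than 4.87 CPM in any library.

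**Figure D5:**
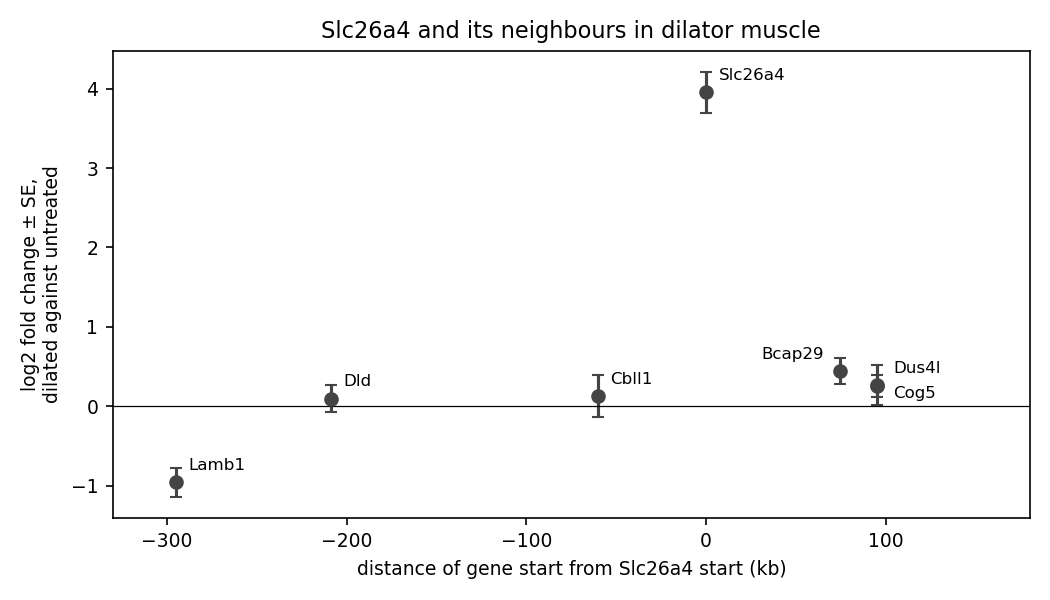
Log2 fold change with its standard error in dilator muscle, dilated against untreated, against the distance in kb between a gene's start and that of Slc26a4, for Slc26a4 and the 6 tested neighbours. Slc26a4 stands at 3.95 and the neighbours between -0.96 and 0.44.

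Over the 30 means of cell type and condition, the genes whose log2(CPM + 1) was most like that of Slc26a4 were Adora1 (Pearson r = 0.76), Cyp4f15 (0.72), Gckr (0.72), Nt5dc2 (0.71) and Bcap29 (0.71), among 15635 genes with a mean of at least 10 CPM somewhere. Adora1 stood at 62.3 CPM in untreated CBE, and at 1.44 and 2.48 CPM in untreated and dilated dilator muscle, so it was like Slc26a4 in CBE and not in the response to dilation. For Slc26a7 the most alike genes were Sesn3 (0.86), Rbp3 (0.84) and Setd7 (0.83), for Slc26a8 Axin2 (0.79), Tcea2 (0.77) and Nck2 (0.75), and for Slc26a11 Tcf20 (0.83), Crlf3 (0.83) and Rab37 (0.83). The 4 members compared in this way were little alike among themselves, with r from -0.34 to 0.15. The points share libraries and differ in depth, so these values are descriptions.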

How the data were processed

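The authors counted UMIs with Cell Ranger 3.1.0 against an mm10 pre-mRNA index, so that intronic reads count, and deposited raw UMI counts, 1 matrix of genes by nuclei for each library, with a cell type for each nucleus from Seurat. The deposited tables also give the percent of mitochondrial counts per nucleus, at most 0.991 percent here. The study states that nuclei with under 500 or over 6000 transcripts were removed; in the deposited tables genes per nucleus ran from 500 to 5956 whereas 949 nuclei had over 6000 UMIs. The study names 5 batches and 2 sequencing runs, and the batch of each library was not given in the sources used here.

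UMIs were added up over the nuclei of a cell type in each library (pandas 2.3.3) and fitted with edgeR 4.0.16 (R 4.3.3; TMM, filterByExpr, glmQLFit, glmQLFTest, two-sided) with all 8 libraries in each fit, with Benjamini-Hochberg adjustment over every gene tested in that cell type. Calls required an adjusted p below 0.05 and a log2 fold change beyond 0.6 in either direction. The SE given with an edgeR log2 fold change was its absolute value divided by the square root of the F statistic. It can be unreliable where the change is very small. The SE of Slc26a4 was taken in the same way, although no dilation test of it is reported. DESeq2 1.42.0 was an alternative. Libraries, not nuclei, were the replicates. Sums of matrix entries differed from the deposited totals by at most 13 UMIs per nucleus. Doublets found by Scrublet, 0.376 to 1.37% per library, were kept, and removed in an alternative. The fits were also run on simulated data in which all genes shared a single dispersion and libraries were independent. That run does not cover libraries of the same series deviating together, as they did in the real data. Positions are from GENCODE on GRCm38 (mm10), which matched 22498 of the 22873 gene symbols.

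The members and lists were chosen with earlier results of these data known. Named genes were all members, up to 4 called genes per list in order of fold change, the neighbours of Slc26a4, and the most alike genes for members with at least 1000 UMIs. Whether same-numbered libraries deviated together was checked: across different series of library numbers they did not (r from -0.03 to -0.01), whereas libraries of the same series did (r from 0.13 to 0.45). The main fits held no term for the series. With the series as a block, the log2 fold change of Slc26a4 in dilator muscle was 3.93, dilated against untreated. Slc26a7 kept its call there with that block, beside 20.4% of all genes called. Other alternatives are given in the closing section.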

Additional observations from a re-analysis of the deposited data

Results flagged for a closer look

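The fitted effect of dilation on Slc26a7 differed between dilator muscle and stroma 2, by -2.31 ± 0.42 (SE) on the log2 scale in an edgeR fit with an interaction term (adjusted p = 0.0021). In stroma 2 alone Slc26a7 did not pass the filter on low counts, so the difference leans on few counts there. No response of stroma 2 is read from it, and the share of all genes that passed this interaction is not given here. In dilator muscle both dilated libraries, at 9.68 and 9.02 CPM, were below all others, and in stroma 2 dilated replicate 1 was at 12.4 CPM and dilated replicate 2 at 4.09 CPM, beside 4.07 to 4.83 CPM untreated. The difference was -1.23 without dilated replicate 1 (adjusted p = 0.385 by edgeR).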

How the results depend on the processing

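The log2 fold change of Slc26a4 in dilated dilator muscle ranged from 3.79 to 4.35 over 16 alternatives. The number of other members called was 0 to 1 when each library was left out, the log2 fold change of Slc26a7 ranging from -1.40 to -0.999, and no library left out changed the 0 members called for constriction; with the series block 1 member was called there. The interaction of Slc26a7 with stroma 2 ranged from -2.72 to -1.23 and that with iris PE from -1.25 to -0.65 as libraries were left out, an alternative chosen after the data were seen; with no low-count filter the latter was -0.94 and passed (adjusted p = 0.00783 by edgeR), and it also passed without the nuclei of shared barcodes (-0.98, adjusted p = 0.0461 by edgeR), also added after the data were seen, and without constricted replicate 1, constricted replicate 2 or untreated replicate 3. In the other 6 of the 11 alternatives the difference between dilator muscle and iris PE did not pass. With the term for each library left out its adjusted p was 0.352 by edgeR. List genes called ranged from 8 to 13, and 1 neighbour was called throughout. With the replicate block, the value of Slc26a4 was 3.85, that of Slc26a7 -1.23 (adjusted p = 0.00384 by edgeR), and the counts were 1 other member, 0 for constriction, 12 list genes and 1 neighbour; the block changed no call of a member, and replicate numbers did not pair libraries of different series. The replicate block raised the share of all genes called for dilation in dilator muscle to 17%. That share was 7.47% without untreated replicate 2 and 20.4% with the series block. The dilation counts of members, list genes and neighbours under each alternative are therefore to be read beside a share that itself changed. For constriction with the series block no such share is given. Taken over all 8 libraries, Slc26a4 in dilator muscle averaged 115.5 CPM and Slc26a7 in CB 76.5 CPM. The mean share of dilated dilator muscle nuclei with a Slc26a4 UMI was 25.6% at 1000 UMIs, 39.6% at 2000 UMIs and 52.6% with no thinning, so it depends on depth. With 2 dilated libraries, leaving 1 out assumes that it varies like the other conditions. For members with few UMIs, such as Slc26a5, the standard errors were wide.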
